A study of Mus musculus with 10 samples.

Results

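The genes described here are the myeloid CD300 and TREM surface receptors Cd300a, Cd300lb, Cd300ld, Cd300lf, Trem1, Trem2, Trem3 and Treml4, with the transmembrane adaptors Tyrobp and Hcst. They were taken by gene symbol, after the Ensembl identifiers of the count tables had been paired with mouse gene names, and all 10 were found among 55414 gene identifiers. They were read in sorted macrophages with engulfed apoptotic cells (Eff+) and without them (Eff-). The uptake is called efferocytosis.

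CD300 and TREM receptors carry a single immunoglobulin-like domain, and many of them bind lipids, lipoproteins or phospholipids that dying cells expose. Activating members have short tails and borrow a signalling adaptor, whereas inhibitory members carry tyrosine motifs (ITIMs) that recruit phosphatases. Tyrobp (DAP12) has an ITAM motif that recruits the kinase Syk, and Hcst (DAP10) has a YINM motif that recruits PI3-kinase.

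Wound Eff+ and wound Eff- macrophages (3 libraries each) came from mouse skin collected 3 days after wounding. Both groups came from LysMCreER/mTmG mice treated with tamoxifen for 6 days, in which a Cre recombinase expressed from the lysozyme M locus of myeloid cells turns the membrane-bound tdTomato reporter into GFP. Culture Eff+ and culture Eff- macrophages (2 libraries each) came from wild-type bone marrow grown in GM-CSF for 7 days, with apoptotic fibroblasts listed as a 12 h treatment. Column names of the culture Eff- libraries carry the letters NOAC, so it is unclear whether these cells had met apoptotic cells. No source used here states how Eff+ was told from Eff- in the wound. The labels give no age, and none says that replicates were separate animals or cultures, so p-values cover only the variation among these libraries, part of which may be technical.

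Libraries held 39735437 to 57308823 counts in the wound and 17622740 to 27261880 in culture. The macrophage gene Cd68 had 1048, 1025 and 1128 CPM (counts scaled by library size) in wound Eff+ libraries and 1399, 1453 and 1455 CPM in wound Eff- libraries. A list of 12 macrophage markers, each of which passed the count filter in both models, took 0.383, 0.288 and 0.348% of counts in wound Eff+ libraries 1, 2 and 3, and 0.871, 0.915 and 0.669% in wound Eff-. A list of 20 neutrophil markers took 4.08, 3.70 and 3.24% in wound Eff+ and 1.07, 0.562 and 0.969% in wound Eff-. Lyz2, lysozyme M, had 159484 counts in Eff+ and 345046 in Eff- of the wound libraries numbered 2, and 160 to 413 in the other 4, so that the libraries numbered 2 are not copies of the others.

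The receptor genes lie in clusters (build GRCm39). Trem1 (ENSMUSG00000042265, chromosome 17, 48539796 to 48553952), Trem3 (ENSMUSG00000041754, 48554805 to 48565869), Treml4 (ENSMUSG00000051682, 48571323 to 48582388) and Trem2 (ENSMUSG00000023992, 48653429 to 48661175) follow each other on the plus strand. Trem1 and Trem3 are 852 bp apart, and 71040 bp separate Treml4 from Trem2. Family genes other than these 10 were not placed. On chromosome 11, Cd300a (ENSMUSG00000034652, 114780867 to 114795480) is on the plus strand. Cd300lb (ENSMUSG00000063193, 114813607 to 114825212), Cd300ld (ENSMUSG00000034641, 114873100 to 114880748) and Cd300lf (ENSMUSG00000047798, 115007040 to 115024818) are on the minus strand. On chromosome 7, Tyrobp (ENSMUSG00000030579, 30113185 to 30117010) and Hcst (ENSMUSG00000064109, 30117137 to 30119279) run towards each other with 126 bp between their ends. No exon of the 10 genes shares a base with an exon of another annotated gene.

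RefSeq promoters (build GRCm38.p6, 250 bases before to 50 after the start) were on hand for 8 of the 10 genes, all but Tyrobp and Trem3. They were searched on both strands for AGGAAGT, the letters bound by the myeloid factor PU.1. The letters were in 4 of the 8 promoters, those of Trem1, Cd300lf, Cd300ld and Hcst, and in 9.35% of 32851 mouse promoters. TGANTCA (AP-1) was in 1 of the 8, that of Trem2, against 7.81% of all promoters. TTGCNNAA (C/EBP) was in 2, those of Trem2 and Cd300a, against 10.8%, and the NF-kB motif, GGGA and CC with 4 bases of any kind between them, was in 1, that of Cd300ld, against 20.7%, where it overlaps an AGGAAGT match. Promoters are shown for 4 genes whose level differed in the wound, Trem1 (chr17:48232489-48232788, plus strand), Cd300lf (chr11:115133943-115134242, minus strand), Hcst (chr7:30419805-30420104, minus strand) and Trem2 (chr17:48346151-48346450, plus strand). Capitals mark AGGAAGT or its reverse complement in the first 3 and the TGANTCA match in Trem2.
Trem1: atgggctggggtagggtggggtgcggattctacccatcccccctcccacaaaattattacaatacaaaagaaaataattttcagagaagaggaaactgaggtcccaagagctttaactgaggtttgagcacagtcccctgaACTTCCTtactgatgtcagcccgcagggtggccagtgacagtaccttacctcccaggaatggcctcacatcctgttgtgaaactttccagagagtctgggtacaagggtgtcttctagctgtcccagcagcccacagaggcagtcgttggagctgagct
Cd300lf: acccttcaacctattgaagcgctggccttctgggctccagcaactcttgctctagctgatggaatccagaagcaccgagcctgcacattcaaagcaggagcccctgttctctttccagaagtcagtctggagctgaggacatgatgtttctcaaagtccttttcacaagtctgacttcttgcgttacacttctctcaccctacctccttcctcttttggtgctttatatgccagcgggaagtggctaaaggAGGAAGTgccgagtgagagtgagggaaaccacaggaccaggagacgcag
Hcst: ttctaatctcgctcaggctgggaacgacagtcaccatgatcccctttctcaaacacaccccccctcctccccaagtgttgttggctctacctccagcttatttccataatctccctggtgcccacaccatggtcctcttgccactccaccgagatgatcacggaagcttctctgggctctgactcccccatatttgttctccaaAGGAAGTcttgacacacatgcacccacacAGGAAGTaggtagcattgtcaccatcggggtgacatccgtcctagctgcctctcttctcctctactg
Trem2: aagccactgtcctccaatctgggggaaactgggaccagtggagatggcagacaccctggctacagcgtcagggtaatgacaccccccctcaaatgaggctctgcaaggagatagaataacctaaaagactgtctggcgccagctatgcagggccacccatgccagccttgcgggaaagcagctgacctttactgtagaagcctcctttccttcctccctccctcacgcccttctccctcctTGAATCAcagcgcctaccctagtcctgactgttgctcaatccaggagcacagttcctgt
With the start of transcription at 0, the first base of the match lies at -109 in Trem1, at 1 in Cd300lf, at -46 and -17 in Hcst, and at -9 in Trem2. A match is a description of these letters, and no binding was measured.

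Per gene length, the adaptor Tyrobp had the highest level of the 10 genes in all 4 groups. In TPM, which divides counts by exon length and brings each library to the same total, it averaged 6702 ± 1312 in wound Eff+ and 4847 ± 610 in wound Eff- (SD, n = 3 each), and 2628 ± 867 in culture Eff+ and 2262 ± 1616 in culture Eff- (SD, n = 2 each). Trem1 came next in the wound, at 2895 ± 475 TPM in Eff+ and 989 ± 262 TPM in Eff-. In wound Eff+ the order went on with Cd300ld (797 ± 336), Cd300lf (536 ± 92.9), Trem3 (423 ± 114), Cd300lb (235 ± 99.9), Treml4 (148 ± 30.0), Cd300a (148 ± 24.5), Hcst (118 ± 23.1) and Trem2 (57.7 ± 16.1). Tyrobp, Trem1 and Trem2 stood clear of their neighbours in that order, while each neighbouring pair between Cd300ld and Hcst overlapped.

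In wound Eff-, Cd300ld (564 ± 158 TPM) stayed behind Trem1 with overlapping ranges, and Trem2 moved up to 168 ± 8.65 TPM, with a range that overlapped those of Cd300a at 176 ± 31.9 and Trem3 at 155 ± 21.6. Hcst was the lowest there, at 75.9 ± 12.3 TPM. In culture the second place belonged to Cd300lb, at 452 ± 24.8 TPM in Eff+ and 354 ± 168 in Eff- (SD, n = 2 each), and Trem3 had the lowest mean in both groups, at 10.5 ± 2.18 and 17.8 ± 7.22 TPM. The 2 tables were counted separately, and no test was made of a level between them.

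**Figure D1:**
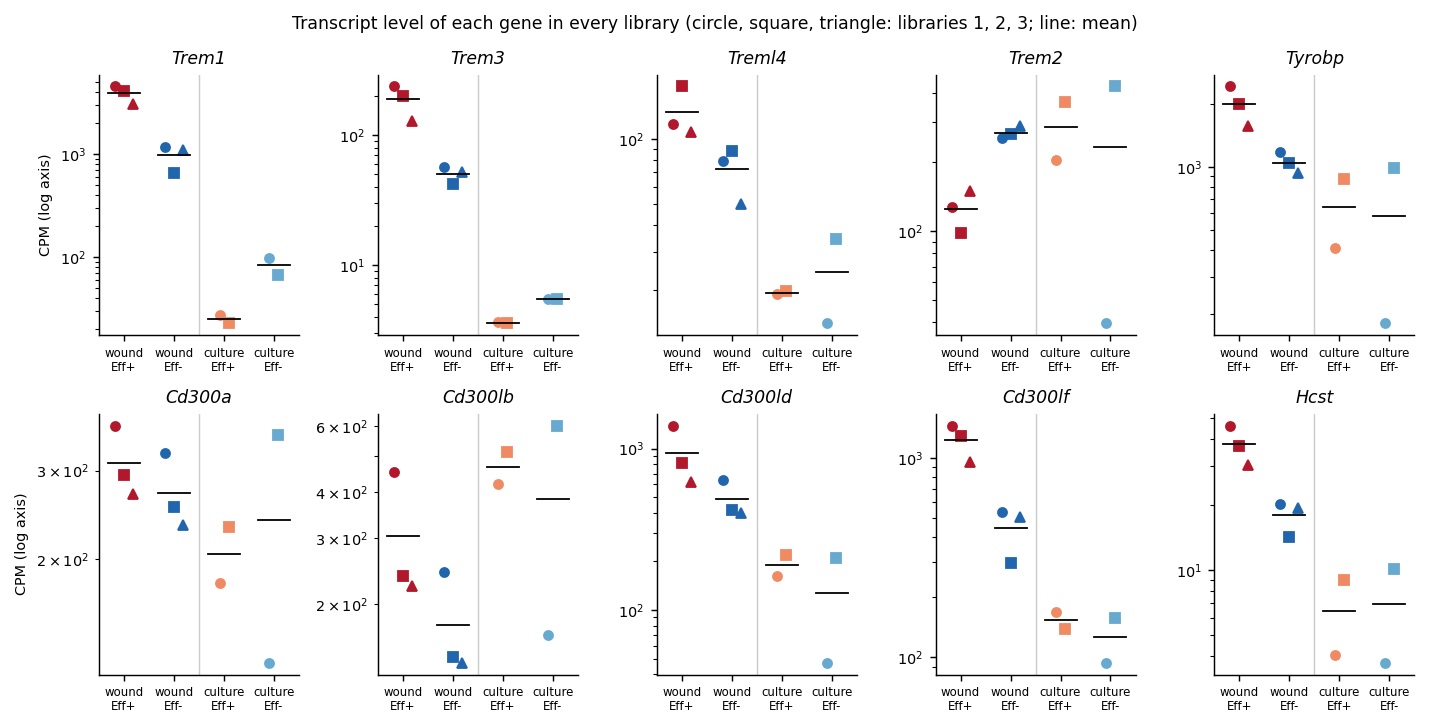
CPM (log axis, scaled within each model) of the 10 genes in each library, with wound Eff+, wound Eff-, culture Eff+ and culture Eff- from left to right in each panel and a line at the group mean. Trem1 and Trem3 are higher in wound Eff+ than in wound Eff- and lower in culture Eff+ than in culture Eff-, whereas Trem2 is lower in every wound Eff+ library and spread widely in culture.

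The first comparison asked how the receptors differed between wound macrophages with and without engulfed cells. Trem1, Trem3, Cd300lf and both adaptors had higher transcript levels in Eff+, and Trem2 a lower level. The edgeR quasi-likelihood test with Benjamini-Hochberg adjustment called 5 of the 10 genes higher and 1 lower at an adjusted p under 0.05, where 11.2% of 14908 tested genes were called (7.39% higher and 3.79% lower). The groups did not overlap for 6 genes that were higher and 1 that was lower, against 36.8% of all tested genes. The median log2 fold change of the 10 genes was 0.94, and that of all tested genes was -0.03. All 10 passed the filter on low counts. In these bulk libraries, fewer cells of a type and less RNA per cell cannot be told apart.

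Trem1, which amplifies inflammatory signalling and is known on neutrophils and monocytes, had 4502, 4073 and 3027 CPM in Eff+ libraries 1, 2 and 3, against 1157, 652 and 1090 CPM in Eff-. Every Eff+ library lay above every Eff- library, and the level was 4.0-fold higher (log2 fold change 2.00, SE 0.28, edgeR Benjamini-Hochberg adjusted p = 0.010). Trem3, a DAP12-coupled activating receptor of mice, had 237, 199.5 and 128 CPM in Eff+ and 57.2, 41.8 and 51.7 CPM in Eff-. It was 3.74-fold higher with no overlap (log2 fold change 1.90, SE 0.26, adjusted p = 0.0097, edgeR). The high and low libraries fell in the same order for both genes in Eff+, with library 1 highest and library 3 lowest.

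Treml4, which binds dying cells and is known from splenic macrophages and dendritic cells, had 117, 175 and 107 CPM in Eff+ and 79.0, 87.5 and 49.8 CPM in Eff-. The groups did not overlap, but the log2 fold change of 0.88 (SE 0.27) missed the threshold (edgeR Benjamini-Hochberg adjusted p = 0.074). Trem2, a receptor for lipids, apolipoprotein E and apoptotic cells, had 127, 98.1 and 150.5 CPM in Eff+ and 255, 266 and 288 CPM in Eff-. It was 2.15-fold lower with no overlap (log2 fold change -1.11, SE 0.19, edgeR Benjamini-Hochberg adjusted p = 0.016). Trem2 thus had the opposite sign to Trem1, Trem3 and Treml4, of which Treml4 was not called, as the map of gene position and change shows.

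**Figure D2:**
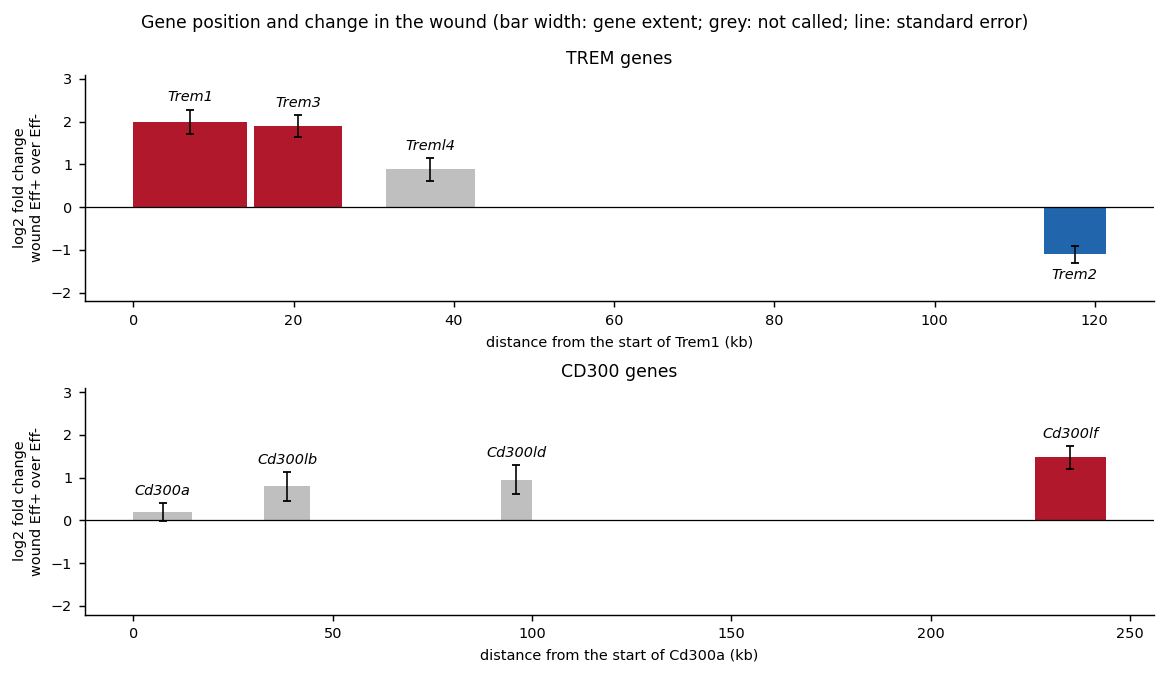
Log2 fold change of wound Eff+ over wound Eff- (y axis, error bars the standard error) against distance from the first gene of the cluster in kb (x axis), for the TREM genes above and the CD300 genes below, with bar width equal to gene extent, red for called higher, blue for called lower and grey for not called. Trem1 and Trem3 at one end of the TREM genes shown are at 2.00 and 1.90, and Trem2 at the other end is at -1.11.

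Among the CD300 genes, Cd300lf was called. It encodes a phosphatidylserine-binding receptor with inhibitory motifs, and it had 1448, 1287 and 958 CPM in Eff+ and 533, 296 and 502 CPM in Eff-. All Eff+ libraries were above all Eff- libraries, and the level was 2.77-fold higher (log2 fold change 1.47, SE 0.28, edgeR Benjamini-Hochberg adjusted p = 0.020). Cd300ld, an activating receptor that couples to the Fc receptor gamma chain, had 1386, 809 and 619.7 CPM in Eff+ and 642, 414 and 397 CPM in Eff-. Its groups overlapped, since Eff+ library 3 lay below Eff- library 1 (log2 fold change 0.95, SE 0.33, adjusted p = 0.10, edgeR).

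Cd300lb, which couples to DAP12, had 453, 237 and 224 CPM in Eff+ and 243, 144 and 139 CPM in Eff-, with overlap (log2 fold change 0.80, SE 0.34, edgeR Benjamini-Hochberg adjusted p = 0.16). For both Cd300lb and Cd300ld, library 1 was the highest of its group in Eff+ and in Eff-. Within numbers 1, 2 and 3, the log2 CPM ratios of Eff+ over Eff- were 0.90, 0.72 and 0.68 for Cd300lb. For Cd300ld they were 1.11, 0.97 and 0.64, though the numbers are not known to pair the samples. Cd300a, an inhibitory receptor for phosphatidylserine and phosphatidylethanolamine, had 369, 294 and 269.7 CPM in Eff+ and 325, 254 and 234 CPM in Eff-. It had the smallest difference of the 10 genes, at a log2 fold change of 0.20 (SE 0.20; -0.20 to 0.60 at 2 SE on either side; edgeR adjusted p = 0.55), and its sign turned to -0.19 when library totals were the only scaling.

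Both adaptors were higher in wound Eff+. Tyrobp had 2416, 1993 and 1563 CPM in Eff+ and 1172, 1042 and 932 CPM in Eff-, which was 1.90-fold higher with no overlap (log2 fold change 0.92, SE 0.22, edgeR Benjamini-Hochberg adjusted p = 0.036). Hcst, at far lower levels, had 46.2, 37.4 and 30.35 CPM in Eff+ and 20.1, 14.1 and 19.3 CPM in Eff-, which was 2.13-fold higher with no overlap (log2 fold change 1.09, SE 0.23, adjusted p = 0.025, edgeR). With library totals as the only scaling, which moved the median log2 fold change of all genes to -0.42, Tyrobp was at 0.53 (edgeR adjusted p = 0.10) and Hcst at 0.70 (0.054). Relative to that median they were at 0.94 and 1.12. Under this scaling 21.2% of called genes were higher, against 66.1% with the main one, and Trem1, Trem3, Cd300lf and Trem2 were still called.

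The calls, more than the sizes of the differences, changed as single libraries were left out. Without Eff+ library 3, all 6 genes were still called, among 820 of 15692 genes. Without Eff+ library 2, edgeR called 0 of the 10 genes and 0 of 15804 genes in all (the smallest adjusted p was 0.058, and 3260 genes had an unadjusted p under 0.05), while the log2 fold changes were 1.96 for Trem1, 1.86 for Trem3, 0.92 for Tyrobp and -0.96 for Trem2. Without Eff- library 1 it called 2 of the 10 (Trem1 and Trem3) among 451 of 16170 genes, and without Eff- library 2 it called 1 (Trem1) among 189 of 15979. Without Eff+ library 1 (1347 of 15789 genes called) or Eff- library 3 (901 of 16049) it called 4, losing both adaptors. The direction of all 10 genes was kept in each of these fits, and DESeq2, which called 21.0% of all tested genes, called 8 of the 10, adding Cd300ld and Treml4. EdgeR without the low-count filter (7.04% called) called 7, adding Treml4, and with the replicate number as a block (2985 of 14908 genes called) it called 9, all but Cd300a.

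**Figure D3:**
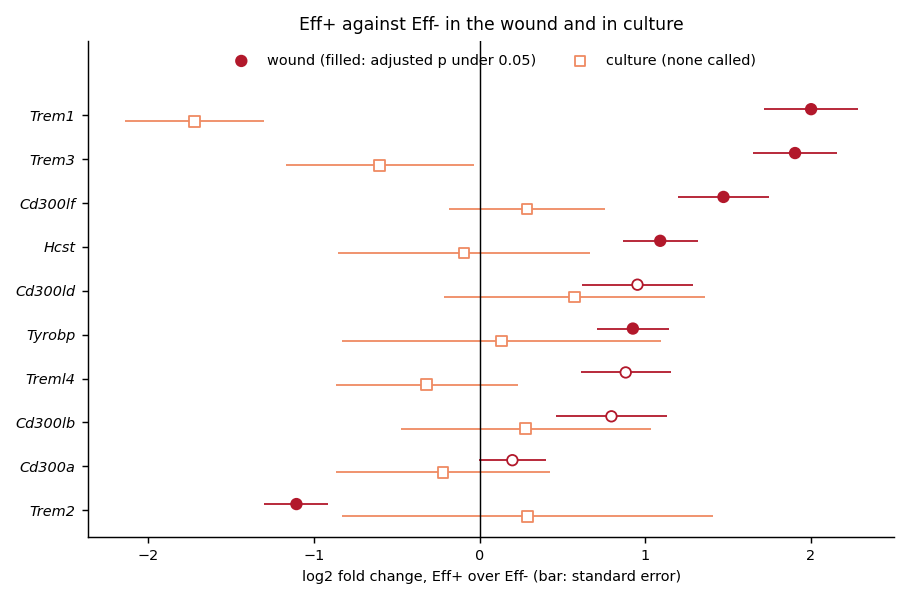
Log2 fold change of Eff+ over Eff- (x axis, bars the standard error) for each gene (y axis) in the wound (circles, filled where the adjusted p was under 0.05) and in culture (open squares, none called). In the wound 9 of 10 genes are above 0, and in culture 5 are above and 5 below, with Trem1 at -1.72.

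Ratios of genes within a library, in TPM, carry no scaling between libraries. Trem1 was 58.5, 68.5 and 33.2 times Trem2 in wound Eff+ and 7.50, 4.05 and 6.25 times Trem2 in wound Eff-, an 8.88-fold difference of the geometric means. Of the summed TPM of the 8 receptors, Trem1 made up 52.5, 57.4 and 56.9% in Eff+ and 37.4, 32.3 and 43.1% in Eff-. Trem1 was thus the majority of receptor transcripts in each Eff+ library and in no Eff- library.

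Tyrobp was 1.83, 1.71 and 1.80 times the summed TPM of 5 receptors that use DAP12 (Trem1, Trem2, Trem3, Treml4 and Cd300lb) in Eff+, and 2.84, 3.84 and 2.55 times it in Eff-. The ratio of Tyrobp to these 5 receptors was thus 1.70-fold lower in Eff+, although both Tyrobp and the summed receptors were higher. Trem1 was the largest part of the sum, at 3393 of 4472 TPM in Eff+ library 1 and 1185 of 1897 TPM in Eff- library 1. Other DAP12 partners, such as Clec5a, were not in the sum. Cd300lf was 3.61, 4.03 and 3.27 times Cd300a in Eff+ and 1.51, 1.07 and 1.98 times it in Eff-, which was 2.46-fold higher. None of these 3 ratios overlapped between the groups, and an exact two-sided permutation test of each gave p = 0.1, the smallest that 3 against 3 libraries allow (0.1 after adjustment over 3 ratios).

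Markers of other cell types moved with these genes. Of the 20 neutrophil markers 17 were called higher in wound Eff+ and none lower (median log2 fold change 2.61), and of the 12 macrophage markers 7 were called lower and none higher (median -1.04). Among all tested genes, 7.39% were called higher and 3.79% lower. Per 1000 counts of the neutrophil list, Trem1 had 97.9, 89.6 and 86.0 counts in Eff+ and 124, 138 and 123 in Eff-. Per 1000 counts of the macrophage list, it had 1043, 1153 and 799 counts in Eff+ and 152, 84.9 and 179 in Eff-. Trem1 was thus lower in Eff+ against the neutrophil list and higher against the macrophage list. Per 1000 counts of the macrophage list, Trem2 had 29.4, 27.8 and 39.7 counts in Eff+ and 33.5, 34.6 and 47.2 in Eff-, and these ranges overlapped. Against 1000 neutrophil counts it had 2.76, 2.16 and 4.28 in Eff+ and 27.3, 56.4 and 32.6 in Eff-. Cd300lf was lower against the neutrophil list, at 31.5, 28.3 and 27.2 in Eff+ and 57.2, 62.8 and 56.9 in Eff-. Against the macrophage list it was higher, at 335, 364 and 253 in Eff+ and 70.2, 38.6 and 82.4 in Eff-. Every gene of the 10 but Trem2 had this pattern without overlap, so it is not particular to Trem1 and Cd300lf. Any gene with a log2 fold change between the medians of the 2 lists (-1.04 and 2.61) tends to show it. The share of all genes that show it was not computed, so the pattern does not set these genes apart. Even Cd300a, which was not called, had 8.02, 6.47 and 7.66 in Eff+ and 34.9, 53.8 and 26.4 in Eff- per 1000 neutrophil counts. Per 1000 macrophage counts it had 85.4, 83.1 and 71.2 in Eff+ and 42.9, 33.0 and 38.3 in Eff-. All 10 fibroblast markers had positive log2 fold changes in the wound (median 1.21) and none was called, and the list took 0.0626, 0.116 and 0.226% of counts in Eff+ and 0.0230, 0.140 and 0.0694% in Eff-, which overlapped. The keratinocyte genes Krt14 and Krt5 had 458, 791 and 162 and 402, 140 and 26 counts in Eff+ libraries and 0 in each Eff- library. Both passed the count filter through Eff+ alone, and Perp had only 10, 0 and 6 counts in Eff-, so no count of calls is given for that list. Of the other lists, 2 of 9 monocyte markers were called lower, and no marker of dendritic cells (12 tested), mast cells (6) or T and NK cells (5) was called. Among T cell genes Cd3e had 0 counts in all 6 wound libraries, whereas Cd3d had 68, 37 and 24 counts in Eff+ and 14, 0 and 15 in Eff- (log2 fold change 2.19, edgeR adjusted p = 0.29). The part of any of these cell types in the results was not tested.

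**Figure D4:**
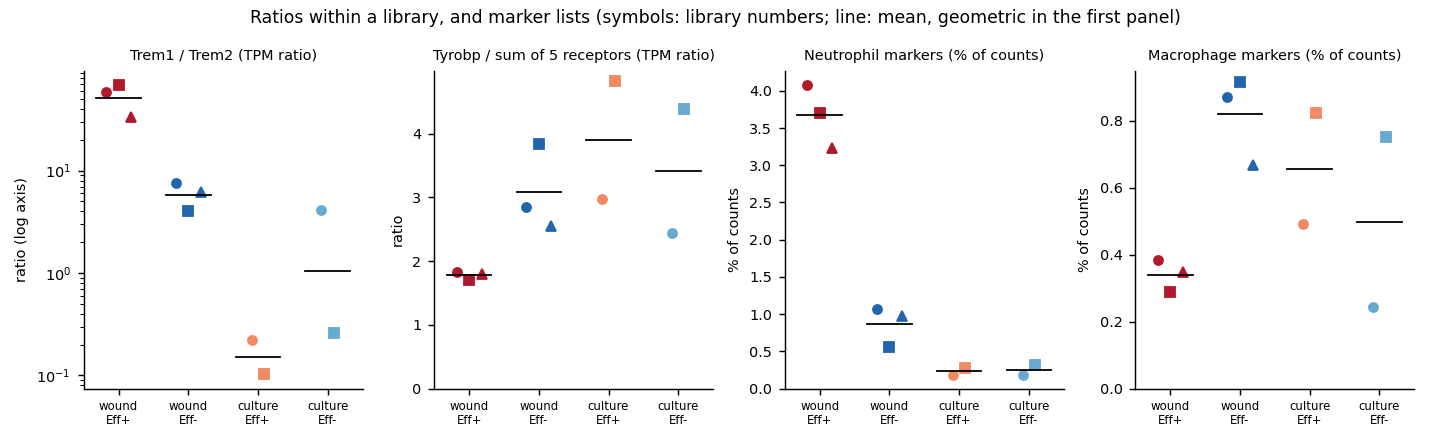
From left to right, the ratio of Trem1 to Trem2 (log axis), the ratio of Tyrobp to the sum of 5 DAP12 receptors, the neutrophil marker list and the macrophage marker list (% of counts), with 1 symbol per library and a line at the mean (geometric in the first panel). Wound Eff+ libraries sit apart from wound Eff- libraries in all 4 panels, and the culture groups overlap in the last 3. In culture Mmp8 alone made up 73.8 to 96.6% of the neutrophil list.

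In culture the same comparison was made with 2 libraries per group. No gene was called: edgeR passed 0 of 14867 genes (0.0%, with 115 at an unadjusted p under 0.05), and DESeq2 called 2 (0.0135%), neither among the 10. EdgeR without the low-count filter (0.00426% of genes called) and with the replicate number as a block (0.323%) called none of the 10 either. The log2 fold change was positive for 5 of the 10 genes and negative for 5, with a median of 0.02 against -0.05 for all tested genes. The groups did not overlap for 2 genes, Trem1 and Trem3, both lower in Eff+, against 20.7% of all tested genes (9.42% lower).

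Trem1 had 27.6 and 22.9 CPM in culture Eff+ libraries 1 and 2, against 99.1 and 67.4 CPM in culture Eff-. Both Eff+ libraries were lower (log2 fold change -1.72, SE 0.42, unadjusted p = 0.0095, adjusted p = 1.00, edgeR). Trem3 had 3.66 and 3.57 CPM in Eff+ and 5.48 and 5.51 CPM in Eff- (log2 fold change -0.60, SE 0.57). Its libraries were close within each group, at low counts. Neutrophil markers had the same sign in culture: 13 of 15 tested were lower in Eff+ (median log2 fold change -1.48), and none was called. Without overlap 6 were lower, against 9.42% of all tested genes. Some had few counts, such as Camp with 16 and 4 in Eff+ and 26 and 20 in Eff-. Others had more, such as Mxd1 with 875 and 868 in Eff+ and 1055 and 1073 in Eff-. The part of the neutrophil markers in the values of Trem1 and Trem3 was not tested.

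For each of the other 8 genes, culture Eff- library 1 was the lowest of the 4 libraries. Trem2 had 205 and 367 CPM in Eff+ and 39.5 and 429 CPM in Eff-, so that the 2 Eff- libraries enclosed both Eff+ libraries (log2 fold change 0.29, SE 1.12, -1.95 to 2.53 at 2 SE on either side). Tyrobp had 412 and 872 CPM in Eff+ and 179.7 and 992 CPM in Eff- (log2 fold change 0.13, SE 0.96). Cd300lb had 420.1 and 511 CPM in Eff+ and 165 and 603 in Eff-, with the same pattern. Within number 1 Trem2 and Tyrobp were higher in Eff+, by log2 CPM ratios of 2.37 and 1.20, and within number 2 the ratios were -0.23 and -0.19.

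Cd300a had 179 and 231 CPM in culture Eff+ and 124 and 353.5 in Eff-. Cd300ld had 161 and 219 CPM in Eff+ and 47.1 and 209 in Eff-, and Cd300lf 169 and 139 in Eff+ and 94.1 and 158 in Eff-. Treml4 had 19.1 and 19.8 CPM in Eff+ and 14 and 34.55 in Eff-, and Hcst 4.04 and 8.93 in Eff+ and 3.73 and 10.1 in Eff-. The macrophage marker list took 0.491 and 0.821% of counts in culture Eff+ and 0.243 and 0.749% in culture Eff-, and counts were found in 35649 and 19649 genes in Eff+ and 44836 and 18171 in Eff-. Eff- library 1 thus had the lowest macrophage share and the most genes with counts, and their part in the spread was not tested.

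The last comparison asked whether the Eff+ to Eff- difference itself differed between wound and culture, in 1 edgeR fit over all 10 libraries. None of the 10 genes, and 0 of 20270 genes in all (0.0%, with 2222 at an unadjusted p under 0.05), passed the adjusted threshold. The difference was largest for Trem1, at 3.74 on the log2 scale (SE 0.58, unadjusted p = 5.0e-05, adjusted p = 0.10), followed by Trem3 at 2.53 (SE 0.46, adjusted p = 0.12, edgeR). For these 2 genes all wound Eff+ libraries were above all wound Eff- libraries, and both culture Eff+ libraries below both culture Eff- libraries, which was also so for 2.83% of 13091 genes tested in both models. Trem2 was at -1.37 (SE 0.98), with an edgeR adjusted p of 0.63, and the other 7 genes had adjusted p-values between 0.46 and 0.92.

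DESeq2, edgeR without the low-count filter and edgeR with the replicate number as a block called Trem1 and Trem3 in this fit, where they called 3.87, 1.09 and 2.18% of genes. Without culture Eff- library 2, edgeR called 2009 genes, among them Trem1 (3.94), Trem3 (2.47) and Trem2 (-3.99). With that library in, Trem2 gave no call, and its log2 difference lay between -1.74 and -0.53 as other single libraries were left out.

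Other genes of the same pathways were read from 6 lists, whose counts of calls in the wound stand against 11.2% of all tested genes called (7.39% higher and 3.79% lower). Among 7 tested relatives of the CD300 and TREM families, none passed the test in the wound (median log2 fold change -0.43). Of the 7, 2 had positive and 5 negative values. Without overlap, 2 were higher in Eff+ and 2 lower, against 18.7 and 18.1% of all tested genes. The higher ones were Treml2 at 1.41 (SE 0.46, edgeR adjusted p = 0.087) and Cd300c at 2.10 (SE 0.66, edgeR adjusted p = 0.080). Cd300c had low counts, 53, 110 and 77 in Eff+ and 15, 13 and 29 in Eff-. The most abundant were Cd300c2, an activating receptor, at -0.43 (SE 0.17, edgeR adjusted p = 0.13), and Cd300e, a monocyte receptor, at -0.03 (SE 0.39). Cd300c2 had 219, 178 and 169 CPM in Eff+ and 266, 266 and 231 CPM in Eff-, so that each Eff+ library was lower. A higher level in wound Eff+ was thus found for members of both families but not for all of them.

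Of 12 tested receptors and adaptors that share DAP12 or DAP10 or stand close to them, 11 had counts in both groups, and of these 3 rose in wound Eff+ (27.3%) and none fell (median 0.39). Clec5a, a DAP12-coupled lectin, had 481, 641 and 519.6 CPM in Eff+ and 213, 186 and 260 CPM in Eff- (log2 fold change 1.32, SE 0.20, edgeR Benjamini-Hochberg adjusted p = 0.012). Sirpb1b rose by 1.61 (SE 0.33) and Pilrb1 by 1.07 (SE 0.25), but both have near-identical paralogs whose reads the counting could split, and Pilrb1 lost its call with library totals as the only scaling (adjusted p = 0.072, edgeR). Siglech, a receptor of plasmacytoid dendritic cells that passed the count filter through Eff+ alone, had 74, 19 and 40 counts in Eff+ and 0 in each Eff- library, at least 47.9-fold higher against a floor of 3 counts over the Eff- group.

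Downstream of the activating motifs, 4 of 21 tested genes rose and 2 fell in wound Eff+ (28.6% called, median 0.20). Syk, the kinase that binds the DAP12 motif, had 271, 387 and 284 CPM in Eff+ and 149, 147 and 155 CPM in Eff- (log2 fold change 1.06, SE 0.18, edgeR Benjamini-Hochberg adjusted p = 0.016). Pik3ap1, a PI3-kinase adaptor (1.37, SE 0.27), Rac2, a small GTPase of blood cells (0.96, SE 0.24), and Lcp2, the adaptor SLP-76 (0.83, SE 0.19), were also higher. Rac2 and Lcp2 lost their calls with library totals as the only scaling (edgeR adjusted p = 0.11 and 0.094). The adaptors Blnk (-1.17, SE 0.22) and Lat2 (-0.84, SE 0.18) were lower. Syk was thus higher together with the DAP12 adaptor, while 2 scaffold genes of the same list went the other way.

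Of 8 phosphatases and Dok adaptors that serve inhibitory receptors, 1 fell and none rose, a share (12.5%) near that of all genes. This was Dok2, at 118, 88.6 and 93.2 CPM in Eff+ and 280.5, 222 and 171 CPM in Eff- (log2 fold change -1.17, SE 0.22, edgeR adjusted p = 0.021). Of 6 tested ligand and sheddase genes, 1 rose and 2 fell. Pglyrp1, a peptidoglycan recognition protein and TREM1 ligand, had 290.1, 232 and 148 CPM in Eff+ and 59.5, 31.8 and 34.5 CPM in Eff- (log2 fold change 2.41, SE 0.33, edgeR adjusted p = 0.0098).

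Apoe, a ligand of TREM2, had 6495, 4244 and 5496 CPM in wound Eff+ and 12399, 11995 and 10287 CPM in wound Eff- (log2 fold change -1.10, SE 0.23, edgeR adjusted p = 0.025). Adam10, a protease that sheds TREM2, was lower by a log2 fold change of -0.63 (SE 0.16, edgeR adjusted p = 0.047), a call lost with relative log expression scaling (0.060) and without the low-count filter (0.051). Pglyrp1 and Apoe were the called ligand genes of the list, with opposite signs. The neutrophil and macrophage marker lists had median log2 fold changes of 2.61 and -1.04 in the wound. The part of these cell types in the values of Pglyrp1 and Apoe was not tested.

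The last list held genes of the Trem2-associated lipid-handling programme, known from mouse microglia. Of 18 tested genes 2 rose in wound Eff+, the growth factor Csf1 (2.34, SE 0.55, edgeR adjusted p = 0.036) and the tetraspanin Cd9 (1.57, SE 0.33, edgeR adjusted p = 0.026), none fell, and the median was -0.21. The share called, 11.1%, was that of all genes. In culture no gene of the 6 lists was called. The median log2 fold changes ran from -0.67 for the adaptor partners to 0.92 for the Trem2 programme, against -0.05 for all tested genes. In the Trem2 programme 17 of 18 values were positive, but only 3 genes were higher without overlap and 1 lower (11.3 and 9.42% of all tested genes). That list took 5.76 and 6.82% of counts in culture Eff+ and 1.33 and 5.06% in culture Eff-. Culture Eff- library 1, the lowest, also had the lowest macrophage share, and its part was not tested. Without wound Eff+ library 2 edgeR called 0 of 15804 genes, so the called genes of these lists lost their calls with all others.

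**Figure D5:**
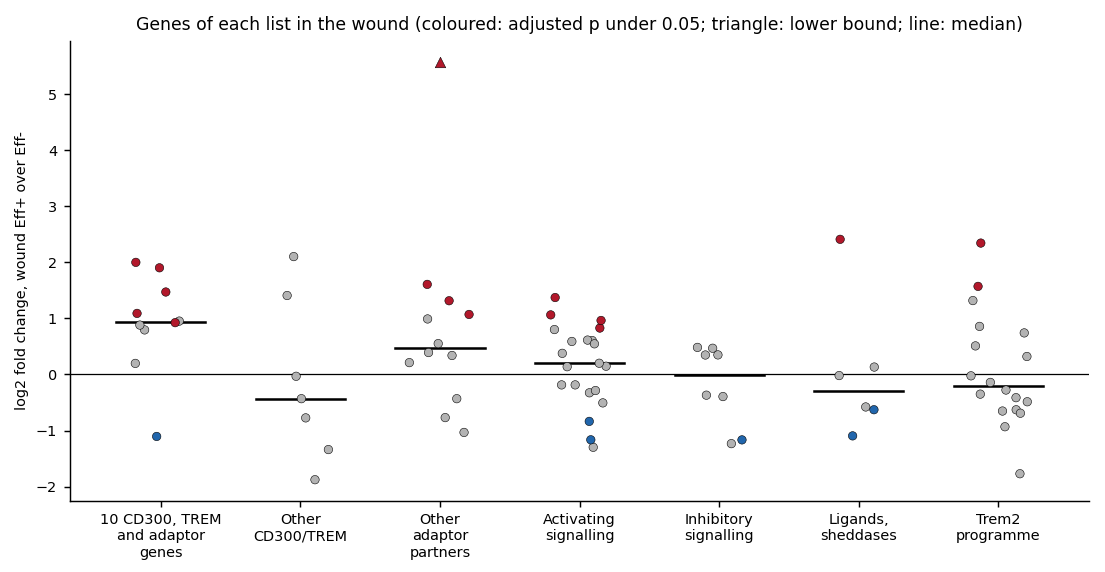
Log2 fold change of wound Eff+ over wound Eff- (y axis) for each tested gene of the 10 genes and of 6 lists (x axis, points spread sideways at random), red for called higher, blue for called lower, grey for not called, a triangle for the lower bound of Siglech and a line at the median, Siglech included. The 10 genes have a median of 0.94, and the lists have medians from -0.43 to 0.47.

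For 4 of the receptors and adaptors, the genes with the most similar level over the 6 wound libraries were looked up by Pearson's r of log2 CPM among 8179 genes. The libraries form 2 groups that differ, so r mostly follows the group difference and is given as a description. Nearest to Trem2 were Plxnb2, Psmd12, Hikeshi and Txndc17 (r between 0.995 and 0.997), and 256 genes reached 0.95. Nearest to Trem1 were Rdh12, Cd53, Samsn1 and Spidr (0.999 each), with 523 genes reaching 0.95. Nearest to Cd300lf were Alox5, Rnf167, Zzef1 and Entpd3 (0.997 to 0.999), and nearest to Tyrobp were Ddx6, Nab1, Plscr1 and Gadd45g (0.996 to 0.997). Many genes thus followed each of these patterns about equally closely.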

How the data were processed

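The authors deposited raw read counts per gene. For the wound libraries, reads were counted with featureCounts 1.6.0 at default settings, with no strand option, on the Ensembl 106 annotation of GRCm39, per the file headers. The culture counts carry no such record. The submitters' processing notes name Trimmomatic 0.39 and GRCm39, and no source used here gives the aligner. GENCODE vM21 named 52081 of 55414 identifiers (99.91% of counts). Another 4 columns of the culture table fit the labels of no sample and were left out.

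Each model was fitted alone on all its genes with edgeR 4.0.16 in R 4.3.3 (TMM scaling, filterByExpr, quasi-likelihood test, no covariate), and the difference between models in 1 fit over all 10 libraries. Benjamini-Hochberg adjustment ran over all genes tested, and genes under an adjusted p of 0.05 were called. A standard error is the size of the log2 fold change over the root of the F statistic. CPM used TMM-scaled library sizes, and TPM used exon lengths of the Ensembl annotation. Counting error is the limit of the floor of 3 counts used for genes at 0. Likeness used genes with a mean of at least 5 CPM and log2(CPM + 0.5).

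The 10 genes, the 14 gene lists (167 distinct genes; Cd300c2 is in 2 lists) and the tests were chosen with earlier results of these data known. All 10 genes were named, with up to 4 called genes per list and direction, or the 2 most abundant where none was called. Counts per 1000 marker counts, shares of lists among genes with counts in both groups, the neutrophil list without Mmp8, the share of genes with opposite non-overlapping groups, and the difference between models without both wound libraries numbered 2, were chosen after seeing the data. Alternatives were relative log expression or totals-only scaling, DESeq2 1.42.0, no low-count filter, a replicate block, and each library or both wound libraries numbered 2 left out. No replicate pair agreed within sampling noise (chi-square per degree of freedom 78.9 to 460). On simulated counts with 200 changed genes the wound fit called 19% of 2-fold and 82% of 4-fold changes and 4 unchanged genes of 14218. The culture fit (13663 genes) and the fit of the difference (17714 genes) called 0% of either.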

Additional observations from a re-analysis of the deposited data

Results flagged for a closer look

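The Eff+ to Eff- difference of Trem1 differed between wound and culture by 3.74 on the log2 scale (SE 0.58), and that of Trem3 by 2.53 (SE 0.46). They stand out because every wound Eff+ library was above every wound Eff- library (3 against 3) while both culture Eff+ libraries were below both culture Eff- libraries (2 against 2). That pattern was found in 371 (2.83%) of 13091 genes tested in both models, and in culture alone 20.7% of all tested genes did not overlap, against 2 of the 10 genes here. The test of the difference itself missed the threshold after Benjamini-Hochberg adjustment in edgeR (adjusted p = 0.10 for Trem1 and 0.12 for Trem3). Over the alternatives the adjusted p of Trem1 ran from 9.3e-10 to 0.79 and that of Trem3 from 1.4e-05 to 0.79. The neutrophil marker list took 4.08, 3.70 and 3.24% of counts in wound Eff+ and 1.07, 0.562 and 0.969% in wound Eff-, and 0.185 and 0.277% in culture Eff+ and 0.176 and 0.311% in culture Eff-. Without Mmp8, which made up most of it in culture, the list took 0.0227 and 0.00938% in culture Eff+ and 0.0459 and 0.0225% in culture Eff-. Of the 15 tested genes of the full list, 13 were lower in culture Eff+ (median log2 fold change -1.48, none called), some at low counts. The part of the neutrophil list in these differences was not tested.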

How the results depend on the processing

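All 10 genes passed the count filter, so depth did not keep any of them from being tested. In the wound, library totals gave 3368 calls, DESeq2 3135, the replicate block 2985 and each library left out 0 to 1347, against 1666, and leaving out both libraries numbered 2 gave 0 (0 of the 10 genes). Of the 10 genes 6 were called, and 0 to 6 with each library left out. Cd300a turned to -0.19 with library totals, and Cd300e to 0.0037 with relative log expression and 0.0038 in DESeq2, and ranged from -0.34 to 0.38 with each library left out. In culture 0 genes were called, 2 in DESeq2, 2 without the filter, 48 with the replicate block and 0 to 27 with each library left out. The culture log2 fold changes ranged, with each library left out, from -0.75 to 1.02 for Cd300a, -0.34 to 1.79 for Cd300lb, -0.10 to 2.31 for Cd300ld, -0.0070 to 1.00 for Cd300lf, -0.55 to 3.15 for Trem2, -0.79 to 0.77 for Treml4, -0.59 to 2.13 for Tyrobp and -0.73 to 1.10 for Hcst, which was 0.042 without the filter. For the difference between models 0 genes were called, 785 in DESeq2, 517 without the filter, 441 with the replicate block and 0 to 2009 with each library left out, with 2, 2, 2 and 0 to 3 of the 10 genes. There Cd300ld was -0.068 with library totals, and with each library left out the values ran from -0.55 to 0.97 for Cd300a, -0.73 to 1.16 for Cd300lb, -1.09 to 1.08 for Cd300ld and -0.94 to 1.55 for Tyrobp. The cause of these changes was not tested. With the block on replicate numbers, 9 of the 10 genes were called in the wound (all but Cd300a), none in culture (Trem1 adjusted p = 0.084) and Trem1 and Trem3 for the difference. Same-numbered wound libraries deviated together by correlations of 0.25, -0.01 and 0.13, and culture ones by 0.74, which with 2 pairs has no check. These correlations do not settle whether the numbers pair the samples. Both wound libraries numbered 2 shared the high Lyz2 counts, and a common source of same-numbered libraries was not tested. The main fits took no account of the numbers. Wound Eff+ library 2 correlated best with Eff- library 3 (0.10). The self-test called no 4-fold change with 2 libraries per group, so an absent call in culture says little.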
